A study of Mus musculus with 7 samples.

Results

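Matrix proteases and the enzymes that modify collagen were examined in High RFP cells, the cells with strong red fluorescence sorted from embryonic mouse neocortex. The set was chosen by gene symbol alone and held 62 of the 38124 genes in the count table: 22 matrix metalloproteinases (MMPs), 19 ADAMTS proteases, 5 ADAMTS-like proteins, 4 tissue inhibitors of metalloproteinases (TIMPs), 5 lysyl oxidases, 3 lysyl hydroxylases, 3 prolyl 4-hydroxylase alpha subunits and the collagen chaperone *Serpinh1*. RNA-Seq was done on 3 libraries from *Tis21*-CreERT2 neocortex that received the control construct, which encodes nuclear RFP, and on 4 libraries from neocortex that received the conditional Sox9 expression construct, which encodes Sox9 together with RFP. All embryos carried 1 copy of the Cre line, were exposed to tamoxifen, were electroporated *in utero* at E13.5 and were collected 48 hr later, at E15.5. Cre was driven from *Tis21*, a gene switched on in progenitors that go on to make basal progenitors or neurons, so the sorted cells comprised such progenitors and their progeny. Cortices of several embryos could enter 1 sort. The comparison asked which of these genes differed in mRNA level between the 2 constructs.

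These genes act on the matrix after its chains are made. Prolyl and lysyl hydroxylases and the chaperone Serpinh1 work on procollagen inside the cell, and lysyl oxidases cross-link collagen and elastin outside it. MMPs and ADAMTS proteases cut matrix proteins with a zinc-dependent catalytic site, TIMPs block that site, and ADAMTS-like proteins share the ancillary domains of the ADAMTS family but lack its protease domain. In developing brain the matrix is rich in hyaluronan and in lecticans such as versican, which several ADAMTS proteases cleave.

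The catalytic site was searched in the coding sequence of each gene as histidine, glutamate, any 2 residues, histidine, any 2 residues, glycine or asparagine, any 2 residues and histidine, in GENCODE transcripts of GRCm38. All 22 MMPs held it, each with glycine, as did 18 of 19 ADAMTS proteases, 13 with glycine and 5 with asparagine, while these letters were in none of the 5 ADAMTS-like proteins and not in *Adamts8*. A site in *Adamts8* with another residue in place of the glycine or asparagine was not searched for, so this does not mean that it lacks a catalytic site. The coding stretches below, read on the coding strand from 5′ to 3′, belong to the 5 ADAMTS proteases that are described first and to the 2 MMPs with the highest levels per exonic length, and capitals mark the codons of the histidines and the glutamate.
Adamts1: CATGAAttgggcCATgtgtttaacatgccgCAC
Adamts5: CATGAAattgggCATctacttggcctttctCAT
Adamts9: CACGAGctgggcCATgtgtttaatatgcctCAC
Adamts12: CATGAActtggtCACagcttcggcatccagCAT
Adamts15: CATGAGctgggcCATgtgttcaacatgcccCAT
Mmp11: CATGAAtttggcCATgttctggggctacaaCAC
Mmp17: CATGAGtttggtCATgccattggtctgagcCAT
In *Adamts1* (chr16:85799191-85799545, minus strand), *Adamts5* (chr16:85878015-85887826, minus), *Adamts9* (chr6:92905285-92908493, minus), *Adamts12* (chr15:11241529-11255564, plus) and *Adamts15* (chr9:30911255-30911690, minus) an intron interrupts these codons, whereas in *Mmp11* (chr10:75926931-75926963, minus) and *Mmp17* (chr5:129596597-129596629, plus) they lie within exon 5. Among the 5 ADAMTS proteases shown, *Adamts1*, *Adamts9* and *Adamts15* had the asparagine codon and *Adamts5* and *Adamts12* the glycine codon.

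The libraries held between 4429704 and 12907778 counts, with the 3 controls at 10465562 or more and the shallowest library labelled Sox9. In the deposited counts, those labelled Sox9 did not hold more of the *Sox9* gene. It measured 34.6, 89.2 and 67.9 CPM (counts scaled to a fixed library size) in the controls and 50.8, 41.1, 31.0 and 37.1 CPM in the others (log2 fold change -0.68, adjusted p = 0.0493, edgeR). By qPCR on sorted cells, the authors found *Sox9* mRNA to be highest in the High RFP cells that received the Sox9 construct. The groups are named here by their labels, and the cause of this difference between the 2 measures was not tested. Markers of other cell types are given beside the 9.96% of all protein-coding genes that were called higher and the 3.88% called lower. The share called higher depended on expression, with 21.6% at an average log2 CPM under 1, 22.5% at 1 to 3 and 2.15% at 3 or more. *Cspg4* was in both the oligodendrocyte precursor list and the mural and meningeal list. Summed levels were 4.87 to 7.12 CPM in controls and 30.2 to 56.6 CPM in Sox9-labelled libraries for oligodendrocyte precursors (7 of 8 tested markers higher), 19.0 to 22.2 and 43.4 to 74.3 CPM for mural and meningeal cells (5 of 15 higher), 32.2 to 52.8 and 54.0 to 84.3 CPM for endothelial cells (2 of 10 higher), 5.04 to 6.82 and 23.4 to 36.5 CPM for choroid plexus (4 of 5 higher), 17.8 to 54.9 and 26.4 to 92.8 CPM for microglia (1 of 12 higher), and 2.29 to 24.8 and 14.7 to 93.5 CPM for erythroid cells (1 of 5 higher in edgeR, 0 in DESeq2), and the groups overlapped for microglia and for erythroid cells. Markers of radial glia (769 to 1240 against 459 to 581 CPM, 4 of 9 lower) and of intermediate progenitors (811 to 942 against 536 to 688 CPM, 2 of 7 lower) summed to less in every Sox9-labelled library, and those of neurons ran from 13963 to 17407 and from 12843 to 14973 CPM with 0 of 10 past the threshold, 4 lower at an unadjusted p under 0.05 and 1 lower in DESeq2. No listed marker in the table was at 0 in every library. The part of these cell types in the results below was not tested, and in such bulk samples fewer cells of a type and less RNA per cell cannot be told apart.

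Of the 62 genes, 44 had enough counts to be tested, and 13 of them were higher and 1 was lower in the Sox9-labelled libraries at an adjusted p under 0.01 (edgeR's quasi-likelihood test, Benjamini-Hochberg adjustment over all 16522 genes tested). The higher genes were *Adamts1*, *Adamts5*, *Adamts9*, *Adamts12*, *Adamts15*, *Adamts19*, *Adamtsl1*, *Adamtsl3*, *Adamtsl4*, *Timp4*, *Loxl1*, *Plod1* and *P4ha3*, and the lower gene was *Timp3*. Higher calls thus made up 29.5% of the tested genes of the set, against 9.96% of all 14267 protein-coding genes tested, and lower calls made up 3.88% of the latter. The median log2 fold change was 0.67 over the 44 genes and -0.06 over the protein-coding genes. The filter keeps genes with enough counts in 3 libraries, so genes low in controls passed through the Sox9-labelled group, and these shares and medians are descriptions. Every Sox9-labelled library lay above every control library for 20 of the 44 genes and below for 3, against 19.8% and 18.4% of the protein-coding genes. The number of higher genes was 7 without control replicate 2 and 8 without Sox9 replicate 3. With cyclic loess normalization, which removes a trend of fold change with expression level, and limma-trend in place of edgeR's test, 5 genes were higher (*Adamts5*, *Adamts15*, *Adamtsl1*, *Adamtsl3* and *Plod1*) and 2 lower (*Timp3* and *Plod2*).

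**Figure D1:**
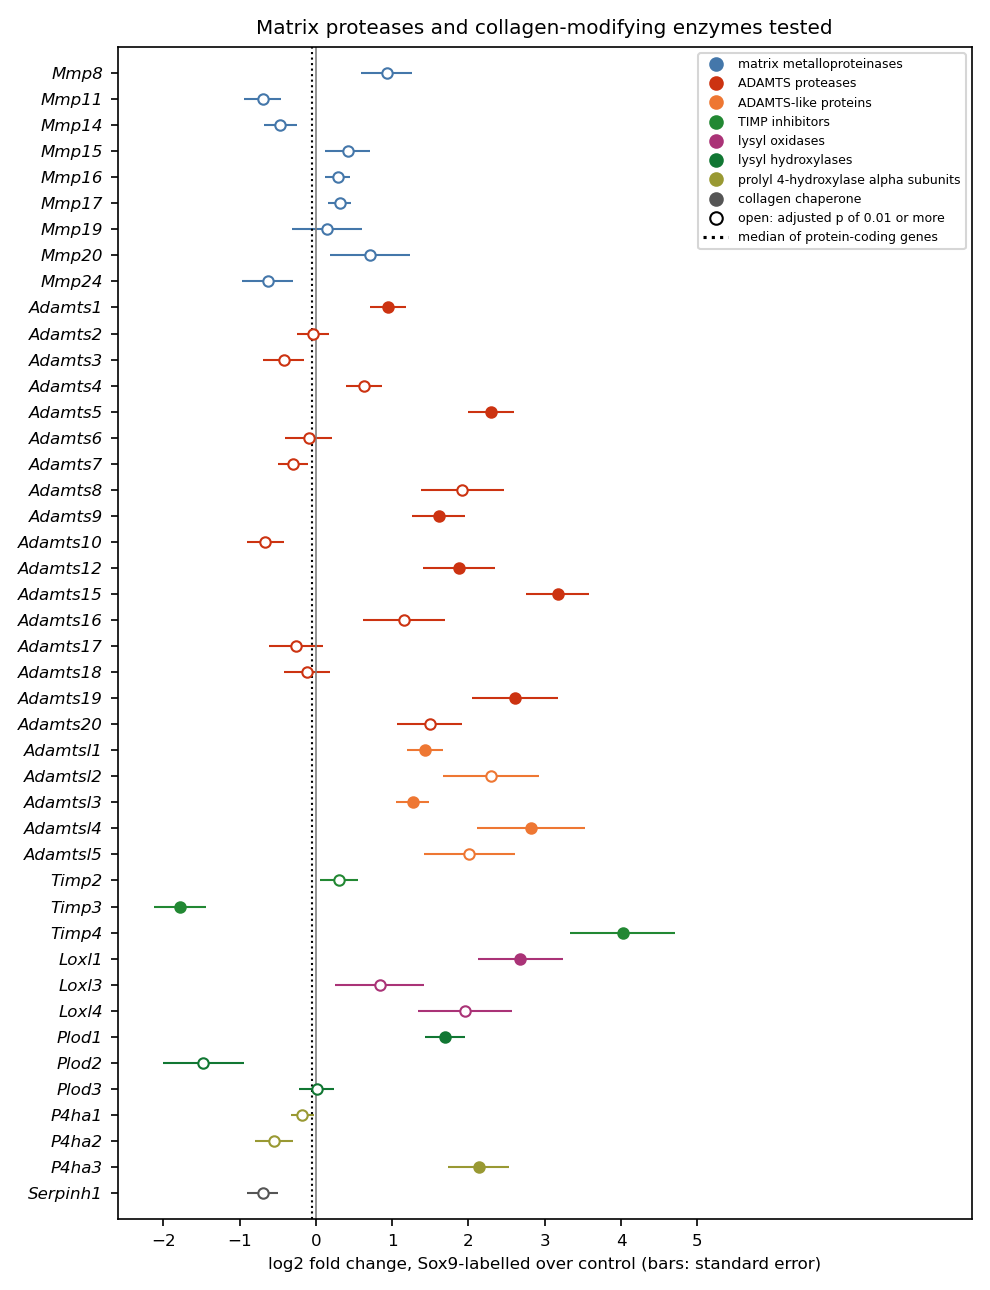
Log2 fold change (x axis, Sox9-labelled over control) of each of the 44 tested genes (rows, coloured by class), with bars for the standard error; filled symbols passed an adjusted p of 0.01 and the dotted line is the median of protein-coding genes (-0.06). The filled symbols run from -1.78 for *Timp3* to a fitted 4.02 for *Timp4*, whose fold is only a bound since controls held 0, 2 and 1 counts, and no MMP is filled.

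Of the 17 tested ADAMTS proteases, 6 were higher, beside 9.96% of all protein-coding genes. Values per library are given in the order of the replicate numbers, control 1, 2 and 4 and then Sox9-labelled 1 to 4. *Adamts5*, an aggrecanase that also cuts versican, measured 7.17, 8.17 and 5.70 CPM in controls and 49.9, 36.9, 17.2 and 34.2 CPM in Sox9-labelled libraries. The lowest of the latter was well above the highest control, and the gene was 4.90-fold higher (log2 fold change 2.29 ± 0.30 SE, adjusted p = 0.000225, edgeR). *Adamts15*, a related versican-cleaving enzyme, measured 0.956, 0.608 and 1.02 CPM against 9.20, 7.47, 9.95 and 4.19 CPM. It had the largest fitted change of the proteases, 8.98-fold higher (log2 3.17 ± 0.41, adjusted p = 0.000217, edgeR), with no overlap between the groups. *Adamts1*, the most abundant of the higher proteases, measured 17.97, 22.6 and 23.6 CPM against 24.0, 43.3, 42.1 and 55.8 CPM. Sox9-labelled replicate 1 stood just above the highest control, the mean was 21.4 ± 3.00 CPM (SD, n = 3) against 41.3 ± 13.1 CPM (SD, n = 4), and the log2 fold change was 0.94 ± 0.23 (adjusted p = 0.0081, edgeR).

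*Adamts9*, which cleaves versican and has a conserved role in secretion and in forming cilia, measured 2.39, 1.30 and 2.34 CPM in controls and 5.63, 5.48, 6.26 and 7.34 CPM in Sox9-labelled libraries. The groups were apart by more than the spread within either (log2 fold change 1.61 ± 0.35, adjusted p = 0.00411, edgeR). *Adamts9* shares 1381 and 424 exonic bases with *A730049H05Rik* and *Gm15737* on the opposite strand, at means of 0.383 and 0.158 CPM in Sox9-labelled libraries. The antisense gene *9530026P05Rik* overlaps it without shared exonic bases and was higher (log2 2.30, adjusted p = 0.00193, edgeR). The part of these overlaps in its counts was not tested. *Adamts12*, an enzyme known for cleaving cartilage oligomeric matrix protein, measured 0.860, 0.434 and 0.712 CPM against 2.88, 2.74, 1.79 and 2.52 CPM (log2 1.88 ± 0.47, adjusted p = 0.00858, edgeR). *Adamts19*, linked to heart valve development, measured 0.191, 0.174 and 0.610 CPM against 2.47, 1.79, 1.90 and 1.89 CPM (log2 2.61 ± 0.56, adjusted p = 0.00416, edgeR). Neither gene overlapped between the groups, but both rested on few counts, at most 29 and 19 in any library. *Adamts12* missed the threshold whichever library was left out (adjusted p from 0.011 without Sox9 replicate 3 to 0.0412 without control replicate 2). *Adamts1* kept its call only without Sox9 replicate 1 (0.00119) and otherwise had adjusted p from 0.0158 to 0.0314. *Adamts9* missed the threshold without control replicate 2 (0.0194) or Sox9 replicate 3 (0.0119), and *Adamts19* without control replicate 1 (0.02) or 2 (0.0244). *Adamts5* and *Adamts15* kept their calls in all 7 such fits.

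The other 11 tested ADAMTS proteases did not pass the threshold. *Adamts3*, a procollagen N-propeptidase that also cleaves reelin in brain, had the highest level per exonic length of the whole family, with 167, 67.9 and 64.4 CPM in controls and 94.4, 73.0, 62.2 and 68.2 CPM in Sox9-labelled libraries. Control replicate 1 alone was far above the rest and the groups overlapped (log2 fold change -0.42 ± 0.27, adjusted p = 0.239), and without that library the log2 fold change was 0.15. The aggrecanase *Adamts4* had a log2 fold change of 0.63 (adjusted p = 0.0526, edgeR), with 11.9 to 13.4 CPM in controls and 12.2 to 26.0 CPM in Sox9-labelled libraries. *Adamts8* (log2 1.92, adjusted p = 0.0164) and *Adamts20*, the closest relative of *Adamts9* (1.49, adjusted p = 0.0167), did not overlap between the groups yet missed the threshold. *Adamts10*, which acts on fibrillin microfibrils, had -0.67 (adjusted p = 0.0473). The remaining 6, *Adamts2*, *Adamts6*, *Adamts7*, *Adamts16*, *Adamts17* and *Adamts18*, had log2 fold changes from -0.30 to 1.16 and adjusted p of 0.114 or more. *Adamts13*, the von Willebrand factor protease, and the N-propeptidase *Adamts14* had 43 and 28 counts in all libraries together and were not tested. With no filter on low counts, edgeR called *Adamts3* (adjusted p = 0.00821) and *Adamts10* lower. The ADAMTS family as a whole summed to 190 to 305 CPM in controls and 242 to 293 CPM in Sox9-labelled libraries.

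All 5 ADAMTS-like genes, whose products carry no protease, lay above the controls in every Sox9-labelled library, and 3 of them passed the threshold. Among all protein-coding genes, 19.8% lay above the controls in this way and 9.96% were called higher, or 21.6% at an average log2 CPM under 1, where *Adamtsl2*, *Adamtsl4* and *Adamtsl5* lay. *Adamtsl3* (punctin-2) measured 14.4, 10.3 and 9.97 CPM in controls and 32.96, 25.5, 20.8 and 32.5 CPM in Sox9-labelled libraries (log2 fold change 1.27 ± 0.22, adjusted p = 0.00128, edgeR). *Adamtsl1* (punctin-1) measured 5.45, 4.69 and 6.31 CPM against 16.9, 12.2, 16.4 and 13.6 CPM (log2 1.43 ± 0.24, adjusted p = 0.000957, edgeR). For both genes the gap between groups exceeded the range within the controls, and both kept their calls with any 1 library left out and under the loess normalization. *Adamtsl4*, a partner of fibrillin microfibrils in the eye, measured 0.287, 0.348 and 0.102 CPM against 3.57, 1.89, 1.34 and 0.419 CPM. Sox9-labelled replicate 4, the shallowest library, had only 2 counts of it, close to the controls (log2 2.82 ± 0.71, adjusted p = 0.00878, edgeR). The call was lost without control replicate 1 (adjusted p = 0.0249), 2 (0.0223) or 4 (0.033), and without Sox9 replicate 1, 2 or 3 the gene fell below the filter. *Adamtsl2*, which binds fibrillin and a latent TGF-β binding protein, and *Adamtsl5* had log2 fold changes of 2.30 (adjusted p = 0.0137) and 2.01 (adjusted p = 0.0194), and *Adamtsl2* was called higher by DESeq2, by edgeR with no filter and without control replicate 4. Summed over the 5 genes, the level was 15.6 to 20.7 CPM in controls and 42.5 to 58.5 CPM in Sox9-labelled libraries.

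Of the 9 MMPs tested with edgeR, 0 passed the threshold, beside 9.96% of all protein-coding genes called higher and 3.88% called lower, and 2 of the 9 had an unadjusted p under 0.05. DESeq2 and limma after the loess normalization called none either, while edgeR with no filter on low counts called *Mmp11* lower (adjusted p = 0.00102). *Mmp11* (stromelysin-3), which had the highest level per exonic length among them, measured 31.9, 34.9 and 33.9 CPM in controls and 10.7, 20.03, 25.7 and 26.8 CPM in Sox9-labelled libraries. Every Sox9-labelled library was below every control, with replicate 1 the farthest (log2 fold change -0.70 ± 0.24, adjusted p = 0.0392). *Mmp17*, anchored to the membrane by a glycolipid, measured 33.5, 29.9 and 38.3 CPM against 45.2, 44.6, 41.5 and 36.9 CPM, with replicate 4 inside the range of the controls (log2 0.31 ± 0.15, adjusted p = 0.122). The membrane-spanning *Mmp14*, *Mmp15*, *Mmp16* and *Mmp24* had log2 fold changes of -0.46, 0.42, 0.28 and -0.63, with adjusted p from 0.121 to 0.296. The collagenase *Mmp8* did not overlap between the groups, at 1.82 to 3.04 CPM in controls and 4.19 to 5.39 CPM in Sox9-labelled libraries (log2 0.93, adjusted p = 0.0465). *Mmp19* and the enamel protease *Mmp20* had adjusted p of 0.838 and 0.322.

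The other 13 MMPs had between 3 and 65 counts in all 7 libraries together and were not tested. They include the gelatinases *Mmp2* (47 counts) and *Mmp9* (18 counts), the stromelysins *Mmp3* (65 counts) and *Mmp10* (15 counts), the collagenases *Mmp1b* (3 counts) and *Mmp13* (6 counts), the matrilysin *Mmp7* (3 counts) and the macrophage elastase *Mmp12* (33 counts). *Mmp10* had 0 counts in each control and 4, 3, 8 and 0 counts in the Sox9-labelled libraries. *Mmp21*, *Mmp23*, *Mmp25*, *Mmp27* and *Mmp28* completed them with 7 to 34 counts. DESeq2, which fitted genes of any depth, called none of the 13. Its default filter can leave genes of so few counts without an adjusted p, so this is not a test of them. Summed over all 22 MMPs, the level was 123 to 135 CPM in controls and 123 to 147 CPM in Sox9-labelled libraries, and the groups overlapped.

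Among the 3 inhibitors tested, *Timp3* and *Timp4* were called in opposite directions. Of all protein-coding genes 3.88% were called lower and 9.96% higher, or 21.6% higher at an average log2 CPM under 1, where *Timp4* lay. *Timp3*, which binds to the matrix and inhibits aggrecanases as well as MMPs, measured 6.88, 11.9 and 12.4 CPM in controls and 2.75, 3.97, 3.47 and 1.47 CPM in Sox9-labelled libraries. All 4 of the latter were below the lowest control, and *Timp3* was lower with a log2 fold change of -1.78 ± 0.34 (adjusted p = 0.002, edgeR). *Timp4* measured 0, 0.174 and 0.102 CPM, or 0, 2 and 1 counts, in controls and 1.37, 1.89, 1.79 and 1.89 CPM, or 10, 20, 16 and 9 counts, in Sox9-labelled libraries. With no control library above 3 counts the fold is a bound, at least 6.10-fold higher when each control is set to 3 counts (adjusted p = 0.00116, edgeR). Both calls held with any 1 library left out, while with cyclic loess and limma-trend *Timp4* missed the threshold (log2 1.07, adjusted p = 0.115). With the replicate numbers of the sample titles as a block, both missed it (adjusted p = 0.0142 for *Timp3* and 0.0135 for *Timp4*, edgeR). *Timp3* and *Timp4* lie on the opposite strand within the synapsin genes *Syn3* and *Syn2*, with which they share 1733 and 90 exonic bases in the annotation, and the library kit does not mark strand. *Syn3* had a log2 fold change of 0.17 (adjusted p = 0.524, edgeR) and *Syn2* of 0.11 (adjusted p = 0.834). *Timp2*, an inhibitor that also takes part in activating pro-Mmp2, measured 15.8, 13.3 and 7.93 CPM against 16.8, 15.9, 16.7 and 11.1 CPM, overlapping between the groups (log2 0.30 ± 0.25, adjusted p = 0.381). *Timp1* had 16 counts in all and was not tested. The summed level of the 4 inhibitors was 20.6 to 25.8 CPM in controls and 15.1 to 21.9 CPM in Sox9-labelled libraries.

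**Figure D2:**
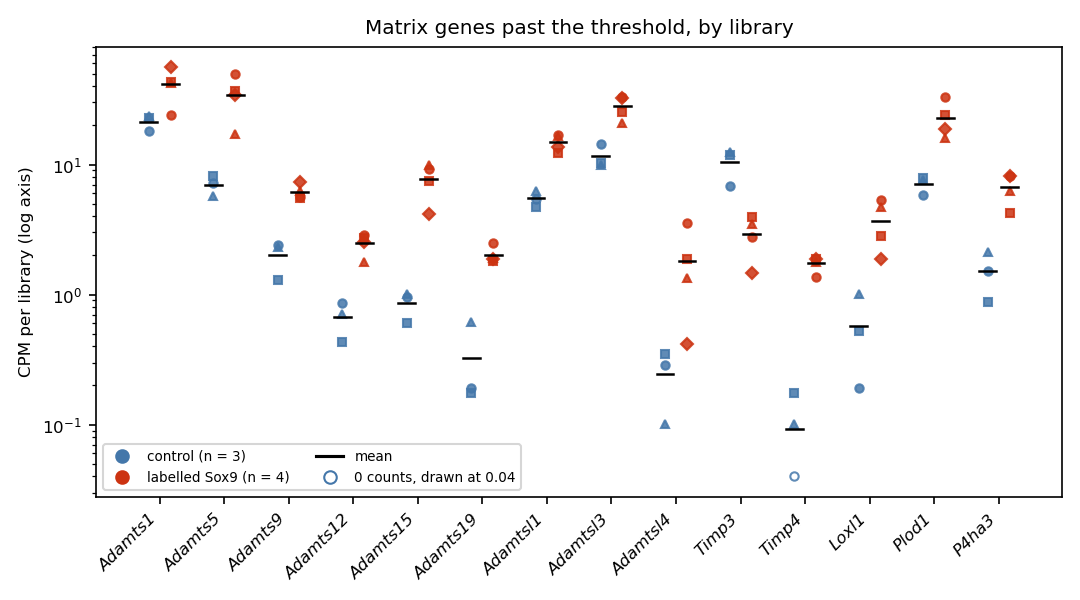
CPM (y axis, log scale) in each library of the 14 genes past the threshold, with control libraries in blue (n = 3), Sox9-labelled libraries in red (n = 4), bars for the group means and marker shapes for the libraries in order of replicate number; an open symbol is a library with 0 counts. For *Timp3* the red points lie below the blue ones, and for each of the 13 others they lie above.

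Of the 3 cross-linking lysyl oxidases tested, 1 was higher, beside 22.5% of protein-coding genes in its range of expression. This was *Loxl1*, a lysyl oxidase needed for elastic fibres. It measured 0.191, 0.521 and 1.02 CPM in controls and 5.36, 2.83, 4.69 and 1.89 CPM in Sox9-labelled libraries, with no overlap (log2 fold change 2.68 ± 0.56, adjusted p = 0.00354, edgeR). It missed the threshold without control replicate 1 (0.0126) or 2 (0.0134) or Sox9 replicate 3 (0.0114), and with cyclic loess and limma-trend (adjusted p = 0.0802). *Loxl4* measured 0.382, 0.0869 and 0.712 CPM against 1.65, 2.17, 1.12 and 1.05 CPM, apart in every library but not past the threshold (log2 1.96 ± 0.62, adjusted p = 0.0264). *Loxl3* varied within both groups, with 0.382, 4.08 and 2.03 CPM against 6.59, 3.02, 2.01 and 4.19 CPM (log2 0.84 ± 0.58, adjusted p = 0.288). *Lox* itself had 23 counts, 16 of them in Sox9-labelled replicate 3, and *Loxl2* had 18, and neither was tested. The 5 lysyl oxidases together measured 1.15 to 4.87 CPM in controls and 8.13 to 14.4 CPM in Sox9-labelled libraries.

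Of the 3 lysyl hydroxylases 1 was higher, *Plod1*, which lay in the range of expression where 2.15% of protein-coding genes were called higher. *Plod1*, which hydroxylates lysines in the collagen helix, measured 5.83, 7.91 and 7.63 CPM in controls and 33.1, 23.9, 15.9 and 18.9 CPM in Sox9-labelled libraries. It was 3.22-fold higher with no overlap (log2 1.69 ± 0.26, adjusted p = 0.00064, edgeR), and kept its call with any 1 library left out. *Plod2*, which acts on the telopeptides that form cross-links, measured 2.20, 1.30 and 2.95 CPM against 0.549, 0.756, 1.34 and 0.210 CPM. Its groups overlapped slightly, at Sox9-labelled replicate 3 and control replicate 2 (log2 -1.48 ± 0.53, adjusted p = 0.0457), and the loess normalization called it lower (adjusted p = 0.00291, limma). *Plod3*, which also adds sugars to hydroxylysine, measured 11.6, 10.3 and 16.2 CPM against 10.9, 11.7, 13.8 and 14.9 CPM (log2 0.01 ± 0.23, adjusted p = 0.981), and the sign of this value changed with the processing.

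Prolyl 4-hydroxylase alpha subunits carry the catalytic site of the enzyme that stabilizes the collagen triple helix, and 1 of the 3 was higher, beside 22.5% of protein-coding genes in its range of expression. *P4ha3* measured 1.53, 0.869 and 2.14 CPM in controls and 8.10, 4.25, 6.26 and 8.18 CPM in Sox9-labelled libraries. The groups did not overlap, the log2 fold change was 2.13 ± 0.40 (adjusted p = 0.00197, edgeR), and the call held with any 1 library left out but not with cyclic loess and limma-trend (adjusted p = 0.0143). *P4ha1*, the main subunit in most cells and the most abundant here, measured 42.1, 38.8 and 39.8 CPM against 40.1, 29.7, 38.6 and 33.8 CPM (log2 -0.18 ± 0.15, adjusted p = 0.381). *P4ha2* measured 11.7, 16.7 and 9.36 CPM against 10.4, 7.94, 7.94 and 7.97 CPM (log2 -0.55 ± 0.25, adjusted p = 0.0991). Both overlapped between the groups. *P4ha1* was the most abundant subunit in every library, and the 3 subunits together measured 51.3 to 56.4 CPM in controls and 41.9 to 58.6 CPM in Sox9-labelled libraries.

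*Serpinh1* encodes Hsp47, the chaperone of procollagen in the endoplasmic reticulum, and did not pass the threshold. It measured 42.2, 63.0 and 67.2 CPM in controls and 27.7, 35.1, 48.5 and 30.2 CPM in Sox9-labelled libraries, where replicate 3 was above control replicate 1 (log2 fold change -0.69 ± 0.20, adjusted p = 0.0187). It passed without control replicate 1 (adjusted p = 0.00671) or Sox9 replicate 3 (0.008), in DESeq2 (0.00373), and in edgeR with no filter on low counts (0.000109).

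Compared per kilobase of exonic length, the levels of these genes spanned a wide range, and the 5 most abundant in controls did not pass the threshold in edgeR with its filter. In their range of expression 2.15% of protein-coding genes were called higher and 508 of 8691 lower. With no filter on low counts *Serpinh1*, *Adamts3* and *Mmp11* passed as lower, and *Serpinh1* also did in DESeq2. *Serpinh1* was at 23.5 CPM per kb in controls and 14.5 in Sox9-labelled libraries, *Adamts3* at 18.4 and 13.7, *Mmp11* at 12.1 and 7.50, *P4ha1* at 9.78 and 8.64, and *Mmp17* at 5.13 and 6.35. *Adamts1* followed with 4.03 and 7.79 CPM per kb, and was the only gene past the threshold above 4 CPM per kb in either group. *Adamts5* reached 3.20 CPM per kb from 0.650, *Plod1* 3.39 from 1.05, *Adamtsl3* 3.61 from 1.49, and *P4ha3* 2.14 from 0.482. *Adamts15* (0.0830 and 0.743), *Timp4* (0.0156 and 0.294) and *Adamts19* (0.0232 and 0.143) remained low in both groups. The order of *Serpinh1* and *Adamts3* in controls was not settled, since *Adamts3* had an SD of 58.1 CPM around a mean of 99.7 CPM there.

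**Figure D3:**
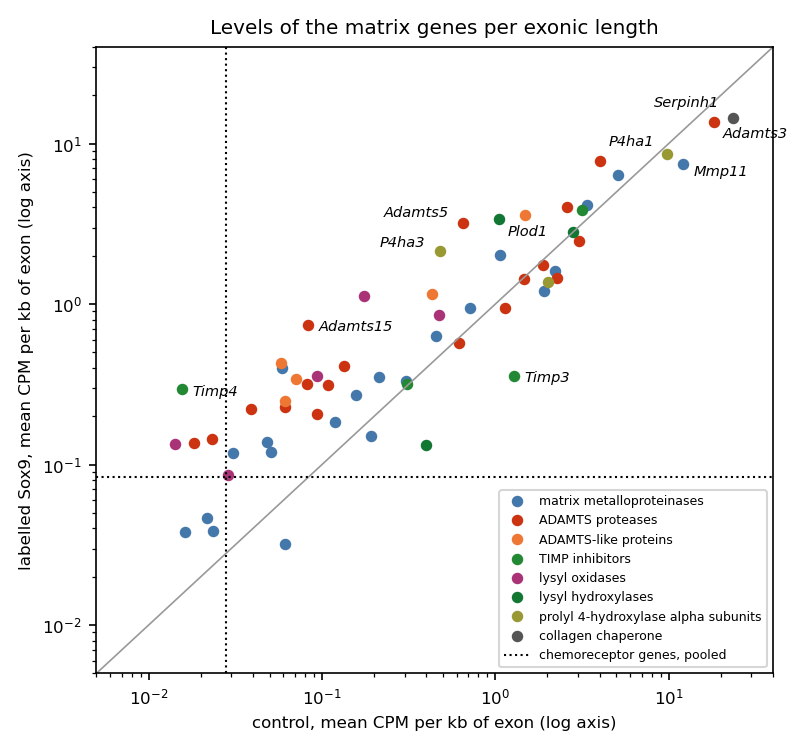
Mean CPM per kilobase of exonic length in controls (x axis) and in Sox9-labelled libraries (y axis), both on log scales, for 61 genes of the set, with the diagonal of equal levels and dotted lines at the pooled level of chemoreceptor genes (0.0278 in controls and 0.0840 in Sox9-labelled libraries). The most abundant genes lie near or below the diagonal and *Adamts5*, *Adamts15*, *P4ha3* and *Timp4* lie well above it.

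Genes of low expression were higher in the Sox9-labelled libraries across the genome, so the set was also described by expression level. Where the average log2 CPM of a protein-coding gene was under 1, 21.6% were called higher and the median log2 fold change was 1.53, and of 12 genes of the set in this range 4 were called higher, with a median of 1.94. At 1 to 3 the share was 22.5% and the median 0.60, and of 11 genes of the set 4 were called higher and *Timp3* lower, with a median of 0.93. At 3 or more the share was 2.15% and the median -0.20, and of 21 genes of the set 5 were called higher, namely *Adamts1*, *Adamts5*, *Adamtsl1*, *Adamtsl3* and *Plod1*, with a median of -0.04. The calls in the lower ranges were therefore set against a background where more than 1 in 5 genes was called, and those in the upper range against a far smaller one.

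**Figure D4:**
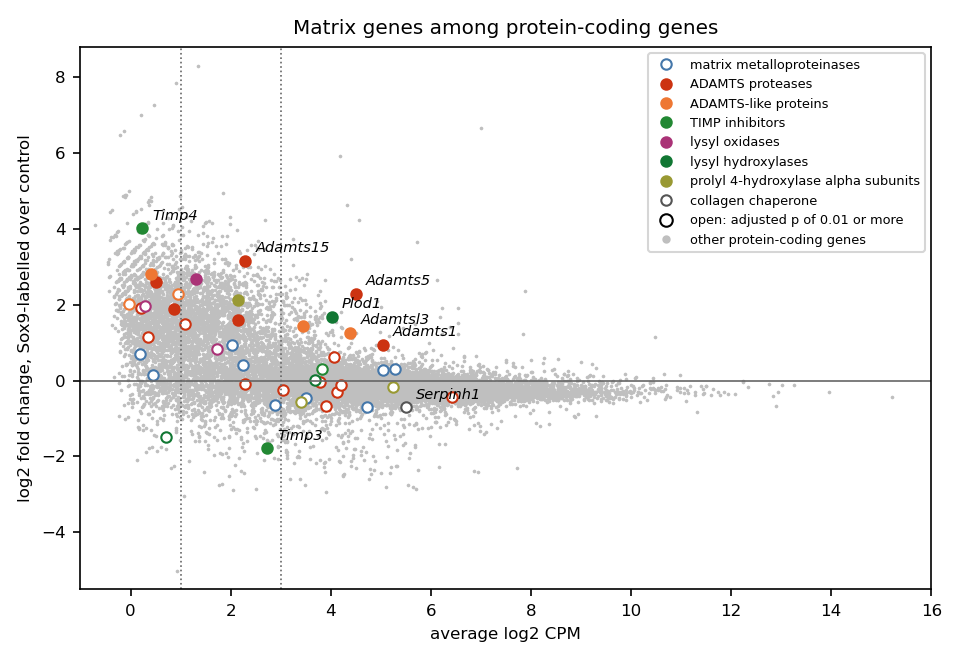
Log2 fold change (y axis, Sox9-labelled over control) against average log2 CPM (x axis) for protein-coding genes (grey) and the tested genes of the set (coloured by class, filled where called), with dotted lines at the limits of the expression ranges, 1 and 3. *Adamts5*, *Plod1*, *Adamtsl3*, *Adamtsl1* and *Adamts1* stand above the grey band at 3 or more, while *Timp4*, *Adamts19* and *Adamtsl4* lie within the cloud of low genes that are mostly above 0.

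Chemoreceptor genes, receptors for odours, pheromones and taste that have no known role in cortical progenitors, gave a reference for signal from genes of no known use in this tissue. Pooled over 1372 such genes, the level was 0.0228 to 0.0312 CPM per kb in controls and 0.0689 to 0.0969 CPM per kb in Sox9-labelled libraries, 3.02-fold higher (log2 1.60). All 13 higher genes of the set were above the pooled level in Sox9-labelled libraries, by 92.7-fold for *Adamts1*, 40.4-fold for *Plod1* and 38.1-fold for *Adamts5*, but by only 2.71-fold for *Adamts12* and 1.71-fold for *Adamts19*. In controls *Adamts19* was at 0.833 and *Timp4* at 0.561 of the pooled level there. Tested against the pooled rise of the chemoreceptor genes instead of against no change, 2 genes of the set remained higher, *Adamts15* (adjusted p = 0.00238, edgeR) and *Timp4* (0.00584). In this test 123 of the 14267 protein-coding genes were higher, and 7622 had a log2 fold change under 0 that differed from the rise. *Adamts15* and *Timp4* had few counts in controls and had to pass the filter on counts, which was not applied to the pooled chemoreceptor genes. The other 11 of the 13 higher genes did not pass this test, with adjusted p (edgeR) from 0.0172 for *Adamts1*, whose log2 fold change was below the pooled rise, to 0.958 for *Adamts9*. The rise was taken from genes of very low level, whereas protein-coding genes at an average log2 CPM of 3 or more had a median of -0.20. *Adamts1*, *Adamts5*, *Adamtsl1*, *Adamtsl3* and *Plod1* lay in that range. The rise is not matched to their level, so missing this test decides nothing about them.

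Other genes of matrix remodelling, a list of 42 genes with ADAM proteases, the plasminogen system, tolloid proteases, collagen-modifying enzymes and cathepsins, were tested in the same fit. Of 35 tested, 3 were higher and 0 lower in edgeR (median log2 fold change 0.30), beside 9.96% higher among all protein-coding genes, with 13 higher and 4 lower at an unadjusted p under 0.05, and DESeq2 called 2 higher and 1 lower. *Plg*, which encodes plasminogen, measured 0.765, 0.261 and 0.712 CPM in controls and 3.57, 2.93, 3.24 and 3.15 CPM in Sox9-labelled libraries (log2 2.46, adjusted p = 0.0022, edgeR). *Pcolce2*, an enhancer of procollagen C-proteinases, had a log2 fold change of 1.78 (adjusted p = 0.00427, edgeR) and *Tll2*, a tolloid-like protease, of 2.12 (adjusted p = 0.00863). The list had no call without control replicate 2 and 1 without Sox9 replicate 3.

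Genes of the substrates of these enzymes are given by kind, beside the 9.96% of all protein-coding genes called higher, and differences between the kinds were not tested. By expression this share was 21.6% at an average log2 CPM under 1, 22.5% at 1 to 3 and 2.15% at 3 or more. Of 10 tested fibrillar collagen genes, with a median log2 fold change of 1.72 in edgeR, 4 were higher in edgeR and 5 in DESeq2, and 0 were lower in either or at an unadjusted p under 0.05 (7 higher). The 4 were *Col27a1* (log2 fold change 1.99, adjusted p = 0.000694, edgeR), *Col1a1* (2.66), *Col5a2* (1.497) and *Col5a3* (2.72). Of 6 tested lecticans and other brain matrix genes, 3 were higher and 1 was lower (median 0.69). *Vcan*, which encodes versican, measured 45.7, 31.9 and 19.9 CPM in controls and 167, 94.4, 67.2 and 85.6 CPM in Sox9-labelled libraries, without overlap (log2 1.67, adjusted p = 0.0014, edgeR). *Reln* (1.32) and *Acan*, the aggrecan gene with at most 1 count in each control, were higher, and *Tnc*, which encodes tenascin-C, was lower (-2.75). Of 6 tested genes of elastin and microfibrils, which include the elastin that *Loxl1* cross-links, 0 passed the threshold in edgeR (median -0.13), 2 in each direction had an unadjusted p under 0.05, and DESeq2 called 2 lower.

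Promoters of the set were read for the core letters bound by Sox proteins, ACAATG and ACAAAG on either strand, in RefSeq windows of GRCm38 that run from 250 bases before to 50 after a transcription start. Windows were at hand for 42 genes of the set, 45 windows in all, and 28.9% of them held either motif, against 28.6% of 32851 windows of all genes (12.6% with ACAATG and 18.7% with ACAAAG). Of the higher genes, 8 had a window and 1 of these, *Adamts1*, held a match, ACAAAG at position -217. The 250 bases upstream of *Adamts1* (chr16:85803114-85803363, minus strand), with the match in capitals, and of *Plod1* (chr4:147936777-147937026, minus strand), without a match, are shown for comparison, since both genes were in the upper range of expression.
Adamts1: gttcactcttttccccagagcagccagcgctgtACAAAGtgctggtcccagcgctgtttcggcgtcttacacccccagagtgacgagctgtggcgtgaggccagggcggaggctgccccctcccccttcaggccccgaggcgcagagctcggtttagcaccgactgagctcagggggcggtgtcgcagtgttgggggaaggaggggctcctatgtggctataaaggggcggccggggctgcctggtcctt
Plod1: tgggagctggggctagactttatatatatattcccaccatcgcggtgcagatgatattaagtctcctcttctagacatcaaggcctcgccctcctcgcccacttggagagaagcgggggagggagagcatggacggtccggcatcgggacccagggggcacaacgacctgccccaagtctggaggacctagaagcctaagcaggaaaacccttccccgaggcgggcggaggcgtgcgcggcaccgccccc
The share of windows with a match was thus close to that of all genes, and a match describes letters and not a binding site.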

How the data were processed

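RNA-Seq libraries of High RFP cells (3 control, 4 labelled Sox9) were analysed from the deposited tables. The authors trimmed adapters, aligned reads to GRCm38 with STAR 2.5.2b and deposited raw counts per Ensembl gene. The counting program and its use of strand are not given in the sources used here. The authors also deposited FPKM values, whose length matched the gene span within 2% for 91.8% of 6894 genes checked and the exonic length for 1.89%, so levels between genes were computed here as CPM per kilobase of GENCODE M21 exons.

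Counts were fitted with edgeR 4.0.16 (TMM, filterByExpr, two-sided quasi-likelihood test, no covariate) over all genes, with Benjamini-Hochberg adjustment and a threshold of 0.01. Symbols were found for 36345 of 38124 genes, 21173 of them protein-coding; *Mmp1a*, annotated as a polymorphic pseudogene, was left out. DESeq2 1.42.0 and limma 3.58.1 served as alternatives. Scripts were tested on simulated counts. No 2 libraries of a group were alike within sampling noise (chi-square per degree of freedom from 7.53 to 20.7). The labels call the libraries biological replicates without naming litters, so p-values measure the spread between these libraries.

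Named genes were every called member, the 2 of each class with the highest level per exonic length, all TIMPs and collagen-modifying enzymes, and the called genes of the comparison lists with the smallest p-values. The members, lists and tests were chosen with earlier results of these data known. Alternatives were other tools, scalings, filters, thresholds, null hypotheses, replicate blocks and leaving out each library.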

Additional observations from a re-analysis of the deposited data

Results flagged for a closer look

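In the group of 4 Sox9-labelled libraries, 54 genes of the set with at least 20 counts were screened for 1 library far from the other 3 by Dixon's ratio, and 4 stood out, where chance flags about 1 in 20. *Adamts8* measured 2.33 CPM in Sox9-labelled replicate 1, with the nearest other library at 1.23 CPM. *Adamts19* measured 2.47 CPM in the same library, with the nearest at 1.90 CPM, and its call held without that library (adjusted p = 0.00936, edgeR). *P4ha2* measured 10.4 CPM in replicate 1 and 7.97 CPM in the nearest. *Timp2* measured 11.1 CPM in Sox9-labelled replicate 4, the shallowest, and 15.9 CPM in the nearest. The group of 3 controls was not screened. The cause of these deviations was not tested.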

How the results depend on the processing

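Against 13 higher and 1 lower genes of the set and 3 calls among other matrix remodelling genes, the counts in the same order were 14, 2 and 3 with DESeq2; 5, 2 and 1 with cyclic loess and limma-trend; 13, 5 and 4 with no filter; 7, 0 and 1 with at least 10 counts in every library (27 genes tested); 0, 0 and 0 with a mean FPKM of at least 1 (7 tested) and with limma on log2(FPKM + 0.1) or log2(FPKM + 0.01); 19, 5 and 13 at an adjusted p under 0.05; 7, 1 and 1 with glmTreat against a 1.5-fold change; and 2, 15 and 12 against the chemoreceptor rise, where lower genes are those with a log2 fold change under 0 that differed from the rise. DESeq2's size factors and a fit of protein-coding genes left the first 2 counts unchanged. Leaving out each library gave 7 to 11 higher, 1 to 2 lower and 0 to 3 other calls. Shared replicate numbers did not pair the libraries (correlations of their deviations from -0.036 to 0.118). With the replicate block the counts were 6, 0 and 0 by the titles and 9, 1 and 1 by the descriptions, and *Adamts5*, *Adamts15*, *Adamtsl1*, *Adamtsl3*, *Plod1* and *P4ha3* were higher under either block. Over all protein-coding genes the fit called 1421 higher and 553 lower, DESeq2 1594 and 1392, and cyclic loess 316 and 252. Against the chemoreceptor rise, with lower genes defined as above, 123 protein-coding genes were higher and 7622 lower.

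The sign of *Plod3*, near 0, turned with DESeq2 (-0.073), its size factors (-0.017), no filter (-0.079), the blocks (-0.0081 and -0.049) and some left-out libraries (-0.12 to 0.24). *P4ha1* turned with loess (0.0091) and on FPKM (0.035 and 0.037), and *Adamts3* ran from -0.64 to 0.15 over left-out libraries. No other gene recomputed under the alternatives changed sign. Where no cause is given above, the cause was not tested. The depth limits 18 genes with 3 to 65 counts in all, which were not tested.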
